A study of Mus musculus with 6 samples.

Results

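Blimp1, the protein of Prdm1, and 7 transcriptional regulators that are known as brakes on osteoclast formation or as keepers of the macrophage state were followed in mouse osteoclast precursors: Bcl6, Maf, Id1, Id2, Id3, Cebpa and Cebpb. These 8 genes were picked by symbol from the 24940 genes of the deposited table, each matched 1 entry, and all 8 passed the filter on low values that left 11595 genes for testing. The cells were bone marrow-derived macrophages (BMMs), primary cells grown from marrow with M-CSF, the growth factor that keeps macrophages and osteoclast precursors alive. They were kept for 3 days with M-CSF at 30 ng/mL alone (-R), with M-CSF and RANKL at 100 ng/mL (+R), or with M-CSF, RANKL and a leaf extract (LE) of the shrub Abeliophyllum distichum at 10 μg/mL (R+LE), and 2 libraries were sequenced for each of the 3 conditions. The labels give C57BL/6 donors aged 6 to 8 weeks with no altered allele, whereas the methods of the study name ICR mice, and neither says whether animals were pooled or whether the libraries of a condition came from separate cultures. The p-values therefore measure only the spread between these libraries, which may be technical.

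RANKL is the cytokine that turns these precursors into osteoclasts, and to do so it has to lift a set of transcriptional brakes. Blimp1 is a zinc finger repressor that is induced by RANKL and is known to shut off Bcl6 and Irf8, while Bcl6 is known to hold down osteoclast genes such as Nfatc1, Ctsk and Dcstamp. The Id proteins carry a helix-loop-helix but no DNA-binding region, and they work by binding and disarming the E proteins. c-Maf and the C/EBP factors are leucine zipper proteins of the myeloid lineage, and C/EBPα is also known to favour commitment to the osteoclast lineage, so the word repressor describes it less well than the others. Cebpb makes long and short protein forms with opposing roles, which gene-level values cannot separate.

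Expression was given as RPKM, a read count scaled to transcript length and to library depth, which allows levels to be compared between genes. The libraries held between 29390205 and 34846382 mapped reads as recovered from the values, the members were covered by 98 to 6705 reads a library, and 3 reads on a transcript of 1 kb corresponded to 0.0861 to 0.102 RPKM. The 45S ribosomal RNA precursor entry, Rn45s, took 4.97% and 6.83% of gene reads in the -R libraries and 10.9% to 13.5% in the others. Summed over 5 macrophage markers, RPKM was 6374 to 6986 in -R, against 2603 to 3347 in +R and 3627 to 4041 in R+LE, and over 6 osteoclast markers it was 40.3 to 41.2, 1706 to 1931 and 298.2 to 340.4, with Calcr at no more than 3 reads in -R. Lyz2 made up most of the macrophage sum (means of 5317, 2132 and 3060 RPKM in the same order), and Adgre1 alone shared its order (183.6, 102.2 and 148.1). Cd68 (771.1, 444.9 and 336.5) and Csf1r (338.4, 206 and 185.2) had their lowest mean in R+LE, and Itgam had its highest there (70.5, 90.2 and 104.2). None of the 5 macrophage markers was near 0 in any condition. Of the other cell types, 5 neutrophil markers summed to 15.4 to 16.8 RPKM in -R, against 0.716 to 0.816 in +R and 0.537 to 2.46 in R+LE. Stromal markers, 5 genes, summed to 14.3 to 16.2, 10.4 to 14.5 and 7.48 to 8.53 RPKM. Endothelial markers, 3 genes, summed to 1.85 to 2 RPKM in -R, against 1.97 to 2.07 in +R and 0.650 to 0.717 in R+LE. The T cell, B cell, dendritic cell, osteoblast and mast cell lists each stayed at or under 1.15 RPKM in every library, and the erythroid list was listed at 0. What part these shifts in marker sums have in the values of the members was not tested. In bulk RNA, fewer cells of a type and less RNA per cell cannot be told apart.

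Because Blimp1 acts on the genes it binds, the stretches just ahead of 6 of the 8 member genes were searched for letters that it and other factors read, and Maf and Id1 were not searched. The windows were the 250 bases before each start from RefSeq on GRCm38.p6 (mm10), and both strands were searched for GAAAGT, the core of the Blimp1 motif, for CANNTG, the E-box read by E proteins, and for CACGTG or CATGTG, E-boxes read by the MiT factors, which are a subset of CANNTG. Shown are the Prdm1 window at chr10:44458749-44458998 (minus strand) with its E-boxes in capitals, the window at the start of the Bcl6 transcript used in the table at chr16:23988853-23989102 (minus strand) with its CACGTG in capitals, and the windows that held GAAAGT, given in capitals, at a Bcl6 start 7569 bases downstream at chr16:23981284-23981533 (minus strand) and at Cebpa at chr7:35119043-35119292 (plus strand).
Prdm1: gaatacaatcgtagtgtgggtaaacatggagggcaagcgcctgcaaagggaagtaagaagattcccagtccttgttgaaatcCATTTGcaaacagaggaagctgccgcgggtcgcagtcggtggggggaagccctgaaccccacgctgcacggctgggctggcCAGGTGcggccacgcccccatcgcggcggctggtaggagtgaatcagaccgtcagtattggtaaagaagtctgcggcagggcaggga
Bcl6, start of the transcript in the table: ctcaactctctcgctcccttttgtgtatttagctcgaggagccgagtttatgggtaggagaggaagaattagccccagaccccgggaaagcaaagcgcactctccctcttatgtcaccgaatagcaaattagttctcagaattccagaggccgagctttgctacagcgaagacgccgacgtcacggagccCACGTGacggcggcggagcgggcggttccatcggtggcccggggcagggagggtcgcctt
Bcl6, start 7569 bases downstream: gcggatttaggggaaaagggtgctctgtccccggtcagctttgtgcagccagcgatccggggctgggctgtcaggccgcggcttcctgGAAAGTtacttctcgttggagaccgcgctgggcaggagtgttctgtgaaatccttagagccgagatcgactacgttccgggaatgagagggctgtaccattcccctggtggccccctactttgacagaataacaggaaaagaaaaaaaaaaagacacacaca
Cebpa: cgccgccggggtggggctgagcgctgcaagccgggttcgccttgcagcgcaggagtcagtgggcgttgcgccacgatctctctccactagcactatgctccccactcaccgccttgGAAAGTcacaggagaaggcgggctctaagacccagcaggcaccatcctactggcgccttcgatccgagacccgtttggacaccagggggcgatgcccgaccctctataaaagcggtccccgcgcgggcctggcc
The GAAAGT lay 162 bases before the downstream Bcl6 start and 134 bases before the Cebpa start. Of 32851 mouse promoter windows, 12.3% held GAAAGT, 66.2% held CANNTG and 17.6% held CACGTG or CATGTG, so none of these motifs is rare. Prdm1 held 2 matches of CANNTG and Id2 held 1, and the windows of Id3 and Cebpb held none of the 3 motifs. Irf8, which is not a member but is known to be shut off by Blimp1, held no GAAAGT at either start searched. A match is a description of the letters and shows no binding.

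Prdm1 was the only member with a higher level after RANKL, and most of that rise was missing when LE was present. Prdm1 (NM_007548) lies at chr10:44437174-44458748 on the minus strand with a transcript of 5196 nt, and no annotated exon of another gene overlaps it. It stood at 0.995 and 1.25 RPKM in -R, against 12.7 and 11.9 in +R and levels of 2.51 and 2.26 in R+LE, from 152 to 2032 reads. The conditions did not overlap, and the R+LE libraries sat between the others and much nearer to -R. On the log2(RPKM + 0.5) scale used for all fold changes, limma's test with Benjamini-Hochberg adjustment over the 11595 genes gave a rise of 2.99 with RANKL (SE 0.153, 95% interval 2.66 to 3.31, adjusted p = 5.23e-10), or 7.94-fold. With LE added it fell by 2.16 (interval -2.48 to -1.83, adjusted p = 3.84e-07), or 4.46-fold lower, which was the 16th largest fall of all genes tested. It still stood 0.83 above -R in R+LE (1.78-fold, adjusted p = 0.000566). Its mean was 1.12 ± 0.179 RPKM for -R, against 12.3 ± 0.569 for +R and 2.38 ± 0.177 for R+LE (each SD over n = 2), and among the tested genes it moved from percentile 10.6 to 62.6 and back to 21.5.

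**Figure D1:**
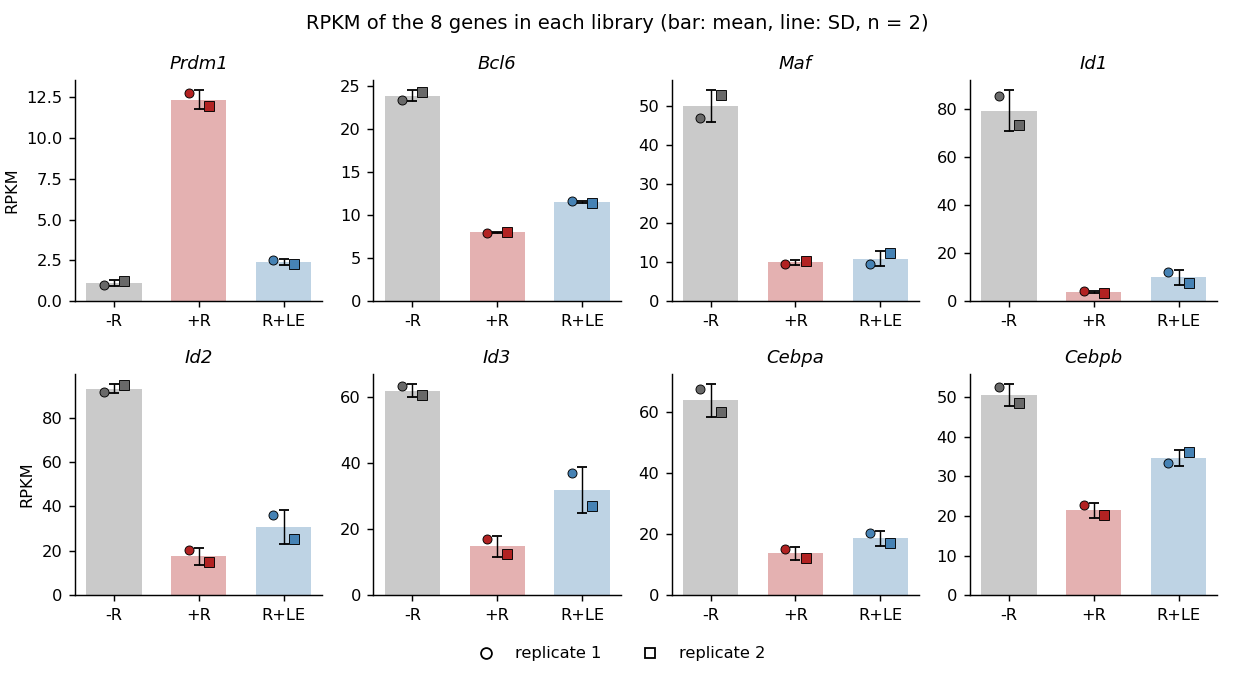
RPKM of each of the 8 genes, on an axis of its own that starts at 0, by condition, with a circle and a square for the 2 libraries, a bar for their mean and a line for the SD. Prdm1 was highest in +R at 12.7 and 11.9 RPKM, while the other 7 genes were highest in -R.

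Bcl6, the zinc finger repressor that Blimp1 is known to silence, moved the opposite way to Prdm1 in each comparison. Bcl6 (NM_009744; chr16:23965050-23988852, minus strand) stood at 23.4 and 24.3 RPKM in -R, against 7.97 and 8.04 in +R and levels of 11.6 and 11.4 in R+LE. The 3 conditions did not overlap, and each pair of libraries lay close together (SD 0.637, 0.0509 and 0.154 RPKM). Bcl6 fell by 1.52 on the log2 scale with RANKL (2.86-fold lower, adjusted p = 1.88e-07, limma). With LE it was higher by 0.50 (interval 0.22 to 0.78, adjusted p = 0.0206), and this call was lost when either +R library was left out, with an adjusted p of up to 0.13 over 17 alternatives whose lowest value was 0.00626. It remained 1.02 below -R (log2 difference -1.02, adjusted p = 2.19e-05).

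Maf fell with RANKL, and it was the member with the smallest difference between R+LE and +R. Maf (NM_001025577; chr8:115703253-115706894, minus strand), which encodes c-Maf, a leucine zipper factor of macrophages, stood at 47.0 and 52.9 RPKM in -R, against 9.55 and 10.4 in +R and levels of 9.53 and 12.4 in R+LE. Both RANKL conditions were far below -R, and the +R and R+LE libraries overlapped. Maf fell by 2.27 with RANKL (4.82-fold lower, adjusted p = 1.1e-08, limma) and by 2.15 in R+LE against -R (adjusted p = 3.66e-08). Between R+LE and +R the log2 difference was 0.12, with an interval from -0.20 to 0.45 (adjusted p = 0.725), and without R+LE replicate 2 it was -0.059. Of its exon bases, 401 are shared with the antisense gene Gm15655, and reads were counted without regard to strand, so the reads of the pair could not be told apart. Set against Maf within each library, Id3 was higher in R+LE than in +R by 0.97 on the log2 scale, Id1 by 1.13, Cebpb by 0.56 and Bcl6 by 0.38, each without overlap between the libraries of the conditions. The ratios of Id2 and Cebpa to Maf did overlap. All of these ratios share the Maf values, so they are not separate observations. For the ratios without overlap an exact permutation test gave p = 0.333, the smallest value that 2 libraries against 2 can give. How common such ratios are among all genes was not computed.

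The Id genes were among the most abundant members in -R, all 3 fell with RANKL, and each was higher again with LE. Id1 (NM_010495; chr2:152736251-152737410, plus strand) stood at 85.1 and 73.1 RPKM in -R, against 4.13 and 3.43 in +R and levels of 12.02 and 7.77 in R+LE. Id2 (NM_010496; chr12:25093799-25096092, minus strand) stood at 91.6 and 94.5, 20.2 and 14.8, and 36.1 and 25.3 RPKM in the same order. Id3 (NM_008321; chr4:136143822-136145392, plus strand) stood at 63.4 and 60.6, 17.0 and 12.5, and 36.9 and 27.1 RPKM. For all 3 genes the libraries of the conditions did not overlap, and R+LE lay between +R and -R. The share of all genes tested that lack overlap was not computed, for these or the other members. Lack of overlap is not a call, since Cebpa had it between R+LE and +R without passing. In both RANKL conditions each Id gene was also higher in replicate 1 than in replicate 2. This order was not particular to the family, since Cebpa and Ctsk had it as well, while Maf had the reverse in both.

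Id1 fell the most of the members, by 4.22 on the log2 scale (SE 0.181, interval -4.60 to -3.83, 18.6-fold lower, adjusted p = 8.38e-11, limma), which was the 17th largest fall with RANKL of all genes tested. Id2 fell by 2.39 (5.26-fold lower, adjusted p = 4.8e-08) and Id3 fell by 2.05 (4.14-fold lower, adjusted p = 1.68e-07). With LE, Id1 was higher by 1.25 (interval 0.87 to 1.64, adjusted p = 0.000282), or 2.38-fold. Id3 was higher by 1.09 (interval 0.71 to 1.46, adjusted p = 0.000673) and Id2 by 0.79 (interval 0.40 to 1.18, adjusted p = 0.00966). The Id2 call was lost without +R replicate 2, without R+LE replicate 1 and without the filter on low values, with an adjusted p between 9.67e-06 and 0.142 over 17 alternatives. Without that filter Id1 and Id3 were also lost, at adjusted p-values of 0.0522 and 0.0586, against lowest values of 4.49e-08 and 8.94e-10. In R+LE the genes remained below -R by log2 differences of -2.96 for Id1, -1.61 for Id2 and -0.96 for Id3 (adjusted p = 7.92e-09, 6.06e-06 and 0.000537).

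Summed, the Id transcripts came to 240.1 and 228.2 RPKM in -R, against 41.4 and 30.7 in +R and sums of 85.0 and 60.1 in R+LE. Their partners, the E protein genes Tcf3, Tcf4 and Tcf12, summed to 44.0 and 42.3, 44.6 and 45.1, and 42.0 and 40.3 RPKM, a range far narrower than that of the Id genes. The ratio of Id to E protein transcripts was therefore 5.46 and 5.40 in -R, against 0.928 and 0.681 in +R and values of 2.03 and 1.49 in R+LE, so in the +R libraries alone the Id transcripts were fewer than those of the E proteins. Of the 3 E protein genes, 1 was lower with RANKL, Tcf4 (log2 difference -0.54, adjusted p = 0.0117, limma), and none passed between R+LE and +R, where the median of the list was -0.07 against -0.05 over all genes. Of all genes tested, 21.5% were lower with RANKL. Tcf4 was also lower between R+LE and -R (log2 difference -0.55, adjusted p = 0.0144). The RANKL call of Tcf4 was lost without +R replicate 1 or without -R replicate 2 (adjusted p = 0.131 in both), and the other call without -R replicate 2 (0.153) or R+LE replicate 1 (0.0969). The makeup of the family changed as well, since Id1 gave 35.5% and 32.0% of the Id sum for -R, 9.98% and 11.2% for +R and 14.1% and 12.9% for R+LE.

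**Figure D2:**
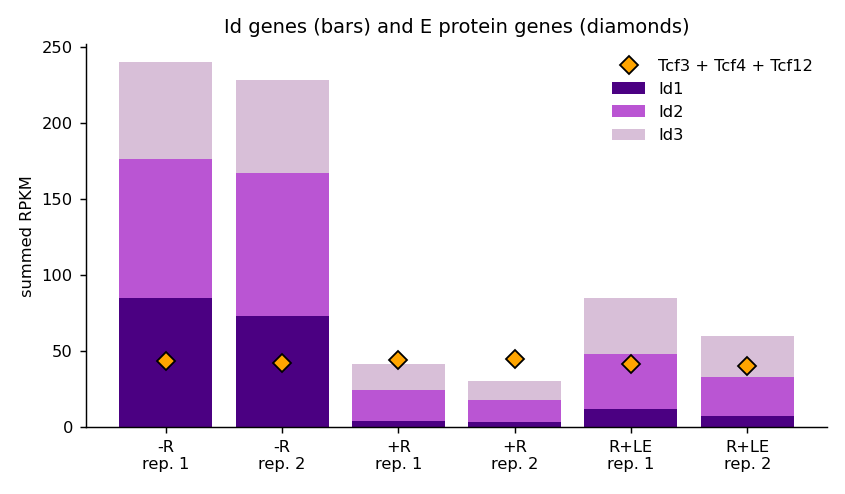
RPKM summed over Id1, Id2 and Id3 and over the E protein genes Tcf3, Tcf4 and Tcf12 in each of the 6 libraries. The Id sum ran from 240.1 RPKM in -R down to 30.7 in +R and 60.1 and 85.0 in R+LE, while the E protein sum stayed between 40.3 and 45.1.

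BMP receptors and SMAD factors switch Id genes on, and Smad6 and Smad7 are inhibitors that the same signal is known to induce. Of 11 listed BMP and SMAD genes 8 were tested, and with RANKL 2 were higher and 4 were lower, where 23.9% and 21.5% of all genes were, with a median log2 difference of -0.51 against 0.05 over all genes tested. Acvrl1, a BMP receptor, stood at 17.9 and 16.2 RPKM in -R, against 1.94 and 1.83 in +R and levels of 4.43 and 3.57 in R+LE. Smad6 stood at 8.47 and 5.48, 1.09 and 1.11, and 2.89 and 3.32 RPKM, and Smad7 at 11.9 and 11.5, 2.28 and 1.98, and 3.78 and 2.90. All 3 had the order of the Id genes, with R+LE between +R and -R. With RANKL the log2 differences were -2.88 for Acvrl1, -2.20 for Smad6 and -2.22 for Smad7 (adjusted p = 5.41e-10, 1.48e-07 and 1.8e-08, limma). With LE they were 0.91, 1.17 and 0.54 (adjusted p = 0.000721, 0.000587 and 0.0326), and these were the 3 genes of the list that passed, all higher, with a list median of 0.07. The LE call of Smad7 was lost without any 1 of 4 libraries, at an adjusted p of up to 0.178 without +R replicate 2. The receptor-activated SMADs split, with Smad1 lower with RANKL (-0.68, adjusted p = 0.000963) and Smad5 higher (0.72, adjusted p = 0.00114), beside the receptor Acvr1, which was higher (0.52, adjusted p = 0.00592) but not without -R replicate 1 (adjusted p = 0.0834). In R+LE against -R, 2 of the 8 were higher and 4 were lower, with a median of -0.54. Of all genes tested, 15.3% and 19.0% were, and 5.19% were higher with LE. Bmpr1a, Bmpr1b and Smad9 fell below the filter and were not tested.

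The C/EBP members lost expression with RANKL to different depths. Cebpa (NM_001287523; chr7:35119293-35121928, plus strand), a factor of myeloid commitment, stood at 67.7 and 60.1 RPKM in -R, against 15.2 and 12.2 in +R and levels of 20.4 and 17.0 in R+LE. Cebpb (NM_001287738; chr2:167688915-167690432, plus strand) stood at 52.5 and 48.5 RPKM in -R, against 22.7 and 20.1 in +R and levels of 33.3 and 36.1 in R+LE. Neither gene overlapped between conditions, and both were lowest in +R. Cebpa fell by 2.19 with RANKL (4.56-fold lower, adjusted p = 2.15e-08, limma) and Cebpb fell by 1.22 (2.33-fold lower, adjusted p = 4.29e-06). With LE, Cebpb was higher by 0.69 (interval 0.39 to 0.99, adjusted p = 0.00416), a call that was lost without +R replicate 2 (adjusted p from 0.000113 to 0.0552 over 17 alternatives). Cebpa did not pass, with a log2 difference of 0.44 (interval 0.11 to 0.77, adjusted p = 0.0867), but it passed under 6 of 17 alternatives, with adjusted p-values that ran from 0.0206 to 0.558. In R+LE against -R, Cebpa was lower (log2 difference -1.75, adjusted p = 4.35e-07) and so was Cebpb (-0.54, adjusted p = 0.00812), and the Cebpb call was lost without -R replicate 1 (adjusted p from 0.00165 to 0.0958). Of the exon bases of Cebpb, 312 are shared with Tmem189 on the opposite strand, whose own entry read 76.8 and 67.6 RPKM in -R, against 42.4 and 37.1 in +R and levels of 42.2 and 39.9 in R+LE. What reads of Tmem189 add to Cebpb was not tested.

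Among 5 other C/EBP genes, 1 was higher and 1 was lower in each comparison, with medians of -0.15 for RANKL, 0.02 for LE and 0.03 for R+LE against -R. With RANKL this is near the shares of all genes tested, 23.9% higher and 21.5% lower. Those shares were 5.19% and 6.86% with LE, and 15.3% and 19.0% in R+LE against -R. These 5 genes shared no direction. With RANKL, Cebpz was higher (0.55, adjusted p = 0.00432, limma) and Ddit3, the stress factor CHOP, was lower (-0.85, adjusted p = 0.000449). Ddit3 stood at 13.4 and 10.2 RPKM in -R, against 6.93 and 5.65 in +R and levels of 3.56 and 3.89 in R+LE, so it was lower at both steps (LE -0.68, adjusted p = 0.0103). Cebpe, a factor of granulocytes, was higher with LE by 0.57 (adjusted p = 0.0473) at 1.37 to 1.58 RPKM in +R and 2.13 to 2.77 in R+LE, a call lost without any 1 of 5 libraries (adjusted p up to 0.291 without R+LE replicate 2). Ddit3 with LE was lost without +R replicate 1 (adjusted p = 0.0808), and Cebpz with RANKL reached 0.05 without -R replicate 1.

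**Figure D3:**
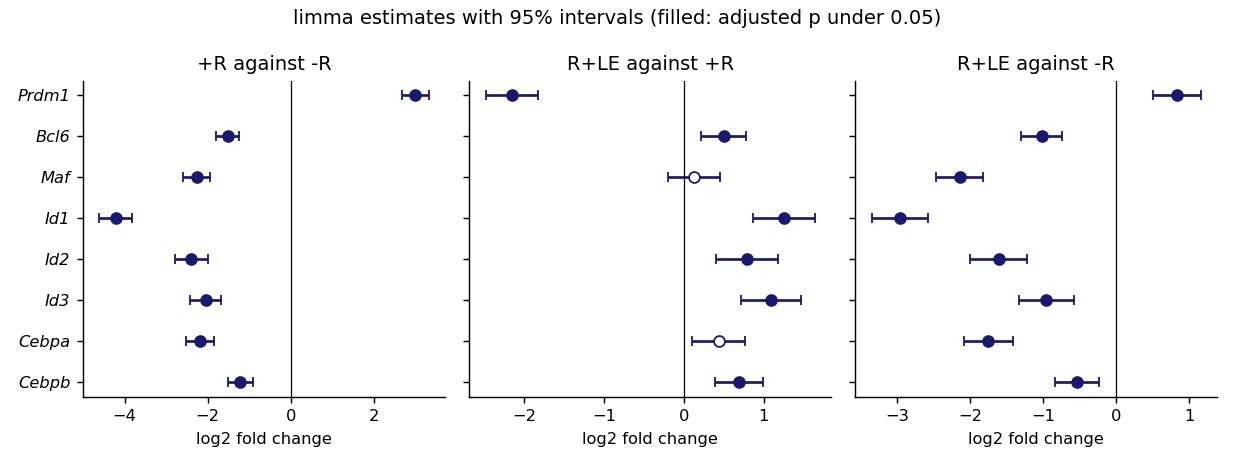
Log2 difference of each of the 8 genes with its 95% interval in the 3 comparisons, RANKL against none (+R against -R), LE added (R+LE against +R) and both against none (R+LE against -R). Prdm1 lay at 2.99, -2.16 and 0.83, and the other 7 genes had the opposite sign in each comparison, with the interval of Maf crossing 0 between R+LE and +R.

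Counted together, RANKL raised 1 of the 8 members, Prdm1, and lowered the other 7, each at least 2-fold. Over all genes tested, 23.9% were higher and 21.5% were lower at this threshold, and 6.58% and 8.92% when 2-fold was also asked for. The median of the 7 was -2.19 against 0.05 over all genes. Between R+LE and +R, 5 members were higher (Bcl6, Id1, Id2, Id3 and Cebpb), 1 was lower (Prdm1) and 2 did not pass (Maf and Cebpa), where 5.19% of all genes were higher and 6.86% were lower. At 2-fold these came down to Id1 and Id3 higher and Prdm1 lower, against 1.46% and 1.78% of all genes, and the median of the 7 was 0.69 against -0.05. Without +R replicate 2, 2 members were higher in place of 5, Id1 and Id3, and without the filter on low values there were also 2, Bcl6 and Cebpb. Between R+LE and -R, 1 member was higher and 7 were lower, against 15.3% and 19.0% of all genes, and at 2-fold none was higher (3.92% of all genes) and 5 were lower (6.36%), the exceptions being Id3 and Cebpb. Over 17 alternatives this log2 difference ran from 0.67 to 1.08 for Prdm1, -1.05 to -0.90 for Bcl6 and -1.18 to -0.74 for Id3. Whether these members reached 2-fold between R+LE and -R thus depended on the setting. The +R libraries enter both of the first comparisons, so the opposite signs there do not come from separate measurements.

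The order of the members turned over between the conditions. In -R the mean RPKM fell from Id2 to Id1, Cebpa, Id3, Cebpb, Maf, Bcl6 and Prdm1, and the libraries overlapped only between Cebpa and Id3 and between Cebpb and Maf among neighbours in that order. In +R it fell from Cebpb to Id2, Id3, Cebpa, Prdm1, Maf, Bcl6 and Id1, with overlap at every step from Cebpb to Prdm1. In R+LE it fell from Cebpb to Id3, Id2, Cebpa, Bcl6, Maf, Id1 and Prdm1, with overlap between Cebpb, Id3 and Id2 and between Bcl6, Maf and Id1. Prdm1 was thus the lowest member in -R and in R+LE and stood in the middle of the list in +R, where Id1, the runner-up in -R, was lowest. Among all tested genes Id1 went from percentile 94.2 in -R to 30.3 in +R and 57.3 in R+LE.

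Setting Prdm1 beside each brake within the same library removes the scaling between libraries. For each Prdm1 RPKM unit there were 23.5 and 19.5 of Bcl6 in -R, against 0.626 and 0.674 in +R and values of 4.64 and 5.06 in R+LE. The balance of these genes, each known to oppose the other in lymphocytes, thus crossed 1 in the +R libraries and lay above it elsewhere. As log2 ratios of (RPKM + 0.5), Prdm1 to Bcl6 was -4.00 and -3.83 in -R, 0.64 and 0.54 for +R and -2.01 and -2.11 for R+LE. Prdm1 to Maf was -4.99 and -4.93, 0.40 and 0.19, and -1.74 and -2.23, and Prdm1 to Id1 was -5.84 and -5.40, 1.51 and 1.66, and -2.06 and -1.58. For these 3 genes the ratio was above 0 in +R. It stayed below 0 in +R for Id2 (-0.65 and -0.30), Id3 (-0.41 and -0.06), Cebpa (-0.25 and -0.03) and Cebpb (-0.81 and -0.73), where the R+LE values were between -3.73 for Cebpb and -2.67 for Cebpa.

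For all 7 genes the ratios of the 3 conditions did not overlap in any pairing. All 7 ratios share the Prdm1 values, so they are not 7 separate observations. The share of such ratios without overlap over all genes was not computed. From -R to +R the mean ratio rose by between 4.21 for Cebpb and 7.21 for Id1 on the log2 scale, and from +R to R+LE it dropped by 2.28 for Maf to 3.41 for Id1. An exact two-sided permutation test gave p = 0.333 for each, which is the smallest value that 2 libraries against 2 can give, so this test could not pass. Against Nfatc1, the master factor of osteoclasts, Prdm1 had mean log2 ratios of -1.92 in -R and -2.03 in +R, with overlapping libraries (exact p = 0.667), and -2.87 in R+LE. The ratio to Nfatc1 was thus lower in R+LE than in +R, without overlap, while -R and +R could not be separated.

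**Figure D4:**
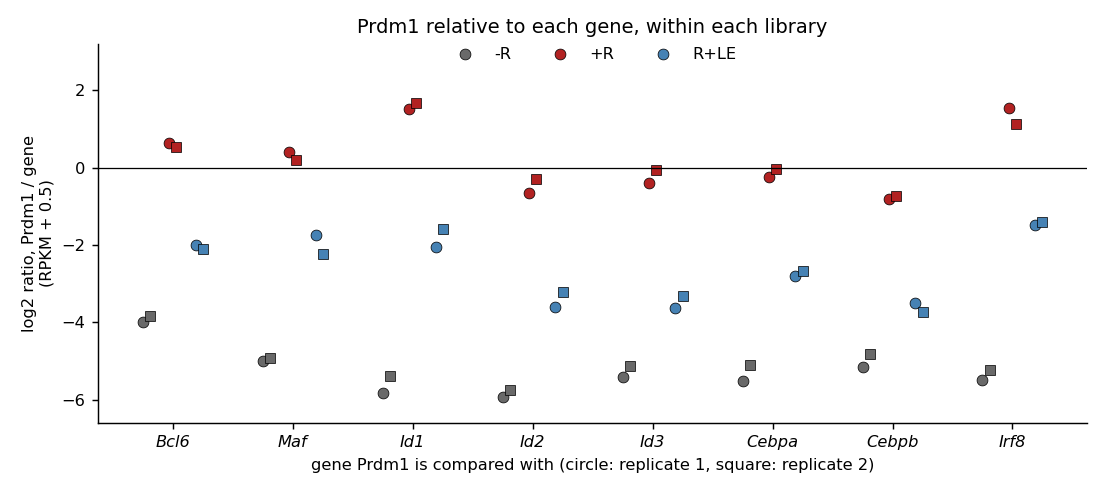
Log2 ratio of Prdm1 to each of the other 7 genes and to Irf8 within each library, with a circle for replicate 1 and a square for replicate 2. The ratios lay lowest in -R, highest in +R and between them in R+LE, and Prdm1 exceeded Bcl6, Maf, Id1 and Irf8 (ratio above 0) in the +R libraries only.

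Other genes that restrain osteoclasts were set beside the members. Of 5 such genes 3 were tested, all 3 were lower with RANKL (median -2.13), 2 were higher with LE (median 0.61) and 2 of the 3 were lower between R+LE and -R (median -2.09). The shares over all genes tested were 21.5% lower with RANKL, 5.19% higher with LE and 19.0% lower between R+LE and -R. Irf8, an interferon regulatory factor of macrophages that blocks osteoclasts, stood at 66.9 and 65.2 RPKM in -R, against 4.07 and 5.21 in +R and levels of 7.88 and 6.76 in R+LE. Rbpj, the DNA-binding partner of Notch, stood at 74.2 and 79.4, 39.3 and 38.3, and 67.2 and 64.2 RPKM. With LE, Irf8 was higher by 0.61 and Rbpj by 0.75 (adjusted p = 0.0128 and 0.00208, limma). The Irf8 call was lost without +R replicate 1 (adjusted p = 0.195) or R+LE replicate 1 (0.0546). They differed in how near to -R they came, since Rbpj did not pass between R+LE and -R (log2 difference -0.22, adjusted p = 0.238) while Irf8 stood at -3.09. Nr4a1, an orphan nuclear receptor, was the exception with LE, at 4.46 and 4.28 RPKM in -R, against 0.621 and 0.607 in +R and levels of 0.629 and 0.652 in R+LE (R+LE against +R 0.03, adjusted p = 0.948). Lhx2 and Id4 fell below the filter, and Lhx2 held 13 and 11 reads in -R and none in the other libraries.

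Of the genes that Blimp1 is known to silence, Myc did not follow Bcl6 and Irf8, and neither did the untested Ciita with LE. Of 4 listed genes 3 were tested, and with RANKL 2 were lower and 1 was higher (median -1.52), while with LE 2 were higher and none was lower (median 0.50). Of all genes tested, 21.5% were lower and 23.9% higher with RANKL, and 5.19% were higher and 6.86% lower with LE. Both LE calls, those of Bcl6 and Irf8, were lost without +R replicate 1. Myc, a growth regulator that Blimp1 silences in plasma cells, stood at 24.6 and 26.3 RPKM in -R, against 48.6 and 46.3 in +R and levels of 42.8 and 45.0 in R+LE. Myc was higher with RANKL by 0.89 (adjusted p = 8.08e-05, limma), as Prdm1 was, and with LE the log2 difference was -0.11 (adjusted p = 0.723). Ciita, the activator of MHC class II genes, was below the filter and not tested. It held 81 and 75 reads in -R, against 55 and 63 in +R and counts of 6 and 11 in R+LE. Ciita was thus lowest in R+LE, where Bcl6 and Irf8 lay above +R. In R+LE against -R, 1 of the 3 was higher and 2 were lower (median -1.02), where 15.3% and 19.0% of all genes were.

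The osteoclast genes that Bcl6 is known to hold down ran opposite to it. All 3, Nfatc1, Ctsk and Dcstamp, were higher with RANKL (median 3.95), lower with LE (median -1.83) and higher in R+LE than in -R (median 2.12). In the same order, 23.9%, 6.86% and 15.3% of all genes tested were. Dcstamp, the fusion receptor, stood at 2.56 and 2.66 RPKM in -R, against 51.7 and 43.9 in +R and levels of 14.6 and 11.6 in R+LE (RANKL 3.95, adjusted p = 2.08e-11, and LE -1.83, adjusted p = 1.27e-06, limma). Ctsk, the collagen-cutting protease cathepsin K, held 10 reads in each -R library (0.216 and 0.182 RPKM), below the pseudocount, and stood at 83.3 and 64.3 RPKM in +R and 18.2 and 14.3 in R+LE. Its log2 difference was 6.72 with RANKL, a value that ran from 5.95 to 8.46 over the alternatives, and -2.15 with LE, and Nfatc1 was higher by 3.10 and then lower (-1.31). Ctsk and Dcstamp are also among the osteoclast markers, whose sum moved the same way.

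Of 9 reported genes for the enzymes and partners that Blimp1 or Bcl6 recruit to silence genes, all tested, 2 were higher and none was lower with RANKL (median 0.23), none passed between R+LE and +R (median -0.07), and 1 was higher in R+LE against -R (median 0.08). Over all genes tested, 23.9% were higher and 21.5% lower with RANKL, so the 2 higher genes are near that share. The shares were 5.19% and 6.86% between R+LE and +R, and 15.3% and 19.0% in R+LE against -R. Hdac2, a histone deacetylase, was higher with RANKL by 0.76 and Prmt5, an arginine methyltransferase, by 0.39 (adjusted p = 0.000442 and 0.037, limma). Of 5 other Maf family genes 3 were tested, with 1 higher and 2 lower with RANKL (median -0.49), 1 lower with LE (median 0.20), and 1 lower in R+LE against -R (median -0.37). Maff, a small Maf without an activation domain, peaked in +R as Prdm1 did, with 1.20 and 1.51 RPKM in -R, against 2.47 and 2.67 in +R and levels of 1.18 and 0.723 in R+LE. Maff was higher with RANKL by 0.73 (adjusted p = 0.00733) and then lower (-1.10, adjusted p = 0.00169). The other small Mafs, Mafg and Mafk, were lower with RANKL (-0.93 and -0.49, adjusted p = 3.72e-05 and 0.01). Leaving out 1 library cost the RANKL calls of Prmt5 (any of 4, adjusted p up to 0.164), Mafk (+R replicate 2, 0.1003, or -R replicate 2, 0.0745) and Maff (-R replicate 1, 0.0824).

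**Figure D5:**
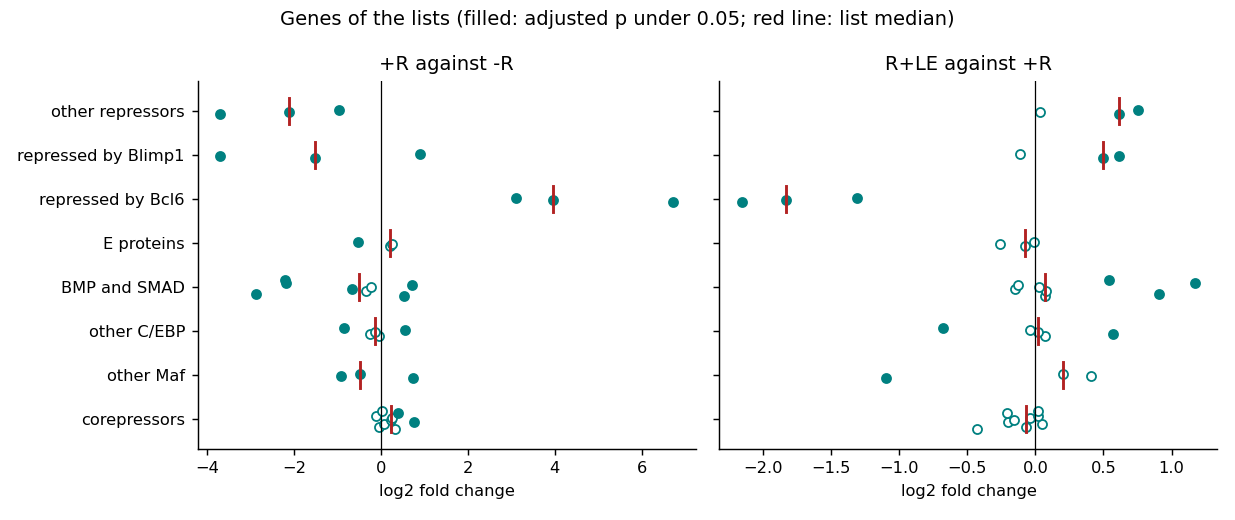
Log2 difference of each tested gene in 8 gene lists, with RANKL against none on the left and LE added on the right, filled where the adjusted p was under 0.05 and with the list median as a red line. The osteoclast genes that Bcl6 is known to repress had medians of 3.95 and -1.83, the other repressors -2.13 and 0.61, and the corepressors 0.23 and -0.07.

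The genes whose profile over the 6 libraries lay nearest to that of Prdm1 were Kbtbd11, Serpind1, Plcb4, Scin and Matk, by Euclidean distance between log2(RPKM + 0.5) values after subtracting each gene's mean. Their distances were 0.1003, 0.401, 0.442, 0.456 and 0.518, against a median of 3.07 for all other tested genes. Kbtbd11, a Kelch and BTB domain protein, was the closest by far and stood at 0.044 and 0.091 RPKM in -R, against 4.37 and 3.96 in +R and levels of 0.591 and 0.467 in R+LE. Its -R libraries held 9 and 22 reads, and at levels so far below the pseudocount its log2 difference of 3.04 with RANKL depends on that pseudocount. Scin, the actin-severing protein scinderin, stood at 3.69 and 3.31, 29.8 and 27.5, and 6.19 and 4.45 RPKM, and Matk, a kinase that restrains Src family kinases, at 1.92 and 1.37, 13.6 and 14.0, and 3.36 and 3.23 RPKM. All 5 genes peaked in +R and lay between the other conditions in R+LE. With a pseudocount of 0.1, 1 of these 5 genes was still among the nearest 5, and with a pseudocount of 1 there were 4. With 6 libraries in 3 conditions, this likeness rests on 3 levels and is a description.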

How the data were processed

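Total RNA of mouse BMMs was sequenced in 6 libraries, 2 for each of -R, +R and R+LE, with condition and replicate number taken from the labels. Per the methods of the study, the authors used TopHat for alignment to mm10 and then HOMER, whose command in the file header counts reads on exons of both strands and gives RPKM, whereas the submitters' processing notes list HISAT2, HOMER and DESeq2. Tool versions are not given in the sources used here. The deposited values are RPKM, under column titles that say FPKM, and 26 symbols that had turned into dates were restored from transcript identifiers.

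RPKM is not a count, so log2(RPKM + 0.5) was tested for the 11595 genes that averaged 0.5 RPKM or more, with limma 3.58.1 in R 4.3.3 (group means of all 6 libraries, empirical Bayes with a variance trend, Benjamini-Hochberg adjustment, threshold 0.05). The study's cut-off of 2-fold was given beside it. Ratios within a library were compared by exact permutation. Python 3.11.15, numpy 2.4.6, pandas 2.3.3, scipy 1.17.1 and matplotlib 3.10.9 were used for the rest. The RPKM of low genes moves in steps of 1 read, and with the transcript length this step gave whole reads and library depth. The intervals given with the log2 differences come from the limma fit, so they reflect the spread between libraries, as the p-values do. Replicates differed beyond counting noise, with a mean chi-square for each gene of 30.1 (-R), 16.8 (+R) and 37.5 (R+LE), and were kept apart. The medians were far lower, at 3.29, 3.57 and 6.59 in the same order. Promoter windows came from RefSeq.

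Named are the 8 members, genes of the described lists, cell type markers and the 5 genes with the profile nearest to Prdm1. The members and lists were chosen with earlier results of these data known. Some listed genes are not reported here, and the counts and medians of their lists leave them out. Tested on simulated data for R+LE against +R with 11510 genes, the fit passed 174 of 200 changed genes (87%) and 25 unchanged ones. Those 25 were a larger share of the passed genes than the threshold on the adjusted p aims at. The 87% was not split by size of change. It therefore gives no pass rate for changes under 2-fold, such as those of Bcl6, Id2 and Cebpb with LE. Tried as alternatives were no filter or a filter at 1 RPKM, pseudocounts of 0.1 and 1, a fit without the trend or of only the compared groups, median centring, quantile normalization, depth without Rn45s, the replicate block, voom on recovered reads and each library left out.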

Additional observations from a re-analysis of the deposited data

How the results depend on the processing

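Over 408 pairs of a member's result and an alternative, 392 kept their direction and side of the threshold, 9 lost and 6 gained a call, and 1 reversed. All member calls between +R and -R were kept, with each library left out too. Members higher between R+LE and +R numbered 2 in place of 5 without the filter, and why was not tested. With single libraries left out this number moved in both directions. The reversal was Maf between R+LE and +R without R+LE replicate 2, at -0.059 (range -0.059 to 0.30 with each library left out), and its cause was not tested. With the replicate block, 6 members were higher between R+LE and +R, since Cebpa also passed, and the block changed no other member call. The deviations of same-numbered libraries correlated at -0.046 between +R and -R and at 0.107 between R+LE and -R. Between R+LE and +R the correlation was 0.249, so same-numbered libraries deviated together in part. There the block gave 756 genes higher and 1036 lower. Over all genes, R+LE against +R had 241 higher and 340 lower without the filter, against 602 and 795. R+LE against -R had 2893 higher and 1845 lower with depth taken without Rn45s, against 1773 and 2201, a scaling that moved the median of all genes by 0.11 and turned no member. Without -R replicate 1, 1761 genes were higher in +R than in -R, against 2772, and 950 higher in R+LE. Without -R replicate 2, R+LE against -R had 1426 lower. Between R+LE and -R, the calls of Acvr1 (adjusted p = 0.0665, limma), Smad5 (0.0825), Cebpz (0.089), Hdac2 (0.0715) and Mafg (0.0579) were lost without -R replicate 1. With 2 libraries a condition, differences as small as that of Maf with LE were not detectable.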
